A study of Mus musculus with 22 samples.

Results

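The 39 Hox genes are described here in every library of a study of the mouse hypothalamus, as 39 of the 41456 gene IDs in the table. They were chosen by symbol, namely Hox followed by a cluster letter from a to d and a paralog number, and all 39 were found in the GENCODE M21 annotation. The HoxA cluster holds 11 members, the HoxB cluster 10, the HoxC cluster 9 and the HoxD cluster 9. Within the study they were read in 4 libraries rich in collagen transcripts and in 17 others, because an earlier look at these data had shown Hox counts to be high in the 4. Both the set of genes and the set of libraries therefore rest on measured values, and the contrast between the 4 and the 17 is given as a description with no test.

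Hox genes encode homeodomain transcription factors that give cells their position along the body axis. Each cluster is read out in its own order: paralogs at the 3′ end are used first and farthest forward, in the hindbrain and neck, and paralogs at the 5′ end last and farthest back, in the tail, the urogenital tract and the ends of the limbs. The forebrain, which includes the hypothalamus, forms in front of the Hox domains, whereas fibroblasts of the trunk and limbs keep a Hox pattern of their site of origin into adult life.

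The mice were C57BL/6J, and all libraries are labelled hypothalamus. PWScrm+/p− mice, called mutant here, lack the paternal copy of the Snord116 small nucleolar RNA cluster, which is the copy that is expressed. The groups were 3 mutant libraries at ZT0 (lights on), 4 mutant libraries at ZT6 (6 h later), 4 mutant libraries at the ZT6 hour following sleep deprivation for 6 h (SD), and 3, 4 and 4 libraries of PWScrm+/p+ control mice in the same states. Neither sex nor age is given in the labels, the labels name no Cre that would limit the deletion to a cell type, and nothing says whether the libraries of a group come from separate extractions. The p-values below thus measure the spread between these libraries, which may in part be technical.

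The 4 collagen-rich libraries were mutant ZT0 replicates 1 to 3 and mutant ZT6 replicate 3, so every mutant ZT0 library was among them and no control library was. They went against their tissue label: 9 neuronal marker genes summed to 12.6 to 124 CPM (counts per 1000000 counts of the library) in the 4, against 3351 to 5653 CPM in the 17. Of these 9 genes none was at 0 in all 4. Library totals were 3120328 to 32164426 counts in the 4 and 14609454 to 46965594 in the 17. The remaining library, mutant ZT6 replicate 2, held 7348 counts in all and no Hox count, which allows up to 408.3 CPM, and it entered only the fits across all genes. The index numbers in the titles of the 4 were 12, 13, 17 and 18, and control ZT0 had 14, 15 and 16. The labels do not say what these numbers stand for. The genes bearing a Snord116 symbol, 17 of them, summed to 0 counts in all 11 mutant libraries and to between 1 and 1561 counts in 8 of the 11 control libraries, with 0 in control ZT0 replicate 3, control ZT6 replicate 4 and control SD replicate 4, so they do not separate every library by genotype.

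Summed over the 39 genes, Hox transcripts reached 129.8, 236 and 347.4 CPM in mutant ZT0 replicates 1, 2 and 3 and 317.4 CPM in mutant ZT6 replicate 3. In the 17 other libraries the sum had a lowest value of 1.62, a median of 3.36 and a highest value of 8.90 CPM. The ranges did not overlap, and the sums rested on 2010, 7592, 1084 and 5642 counts in the 4 and on 56 to 216 counts in each of the 17. Taking 1 CPM as present, 27, 30, 32 and 34 members were present in the 4 and 0 to 2 members in the 17. For 33 of the 39 members all 4 libraries stood above all 17, where 7.86% of the 32403 genes with any count did so; since the members and the libraries were chosen on these values, nothing is read from that difference. The 6 others were Hoxa6, Hoxb1, Hoxb13, Hoxc9, Hoxd1 and Hoxd11. Among the 33, Hoxa4, Hoxa13, Hoxc12 and Hoxd12 had only 1 or 2 counts in at least 1 of the 4 libraries. In bulk RNA, fewer cells of a type and less RNA per cell cannot be told apart, here or in any later comparison.

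**Figure D1:**
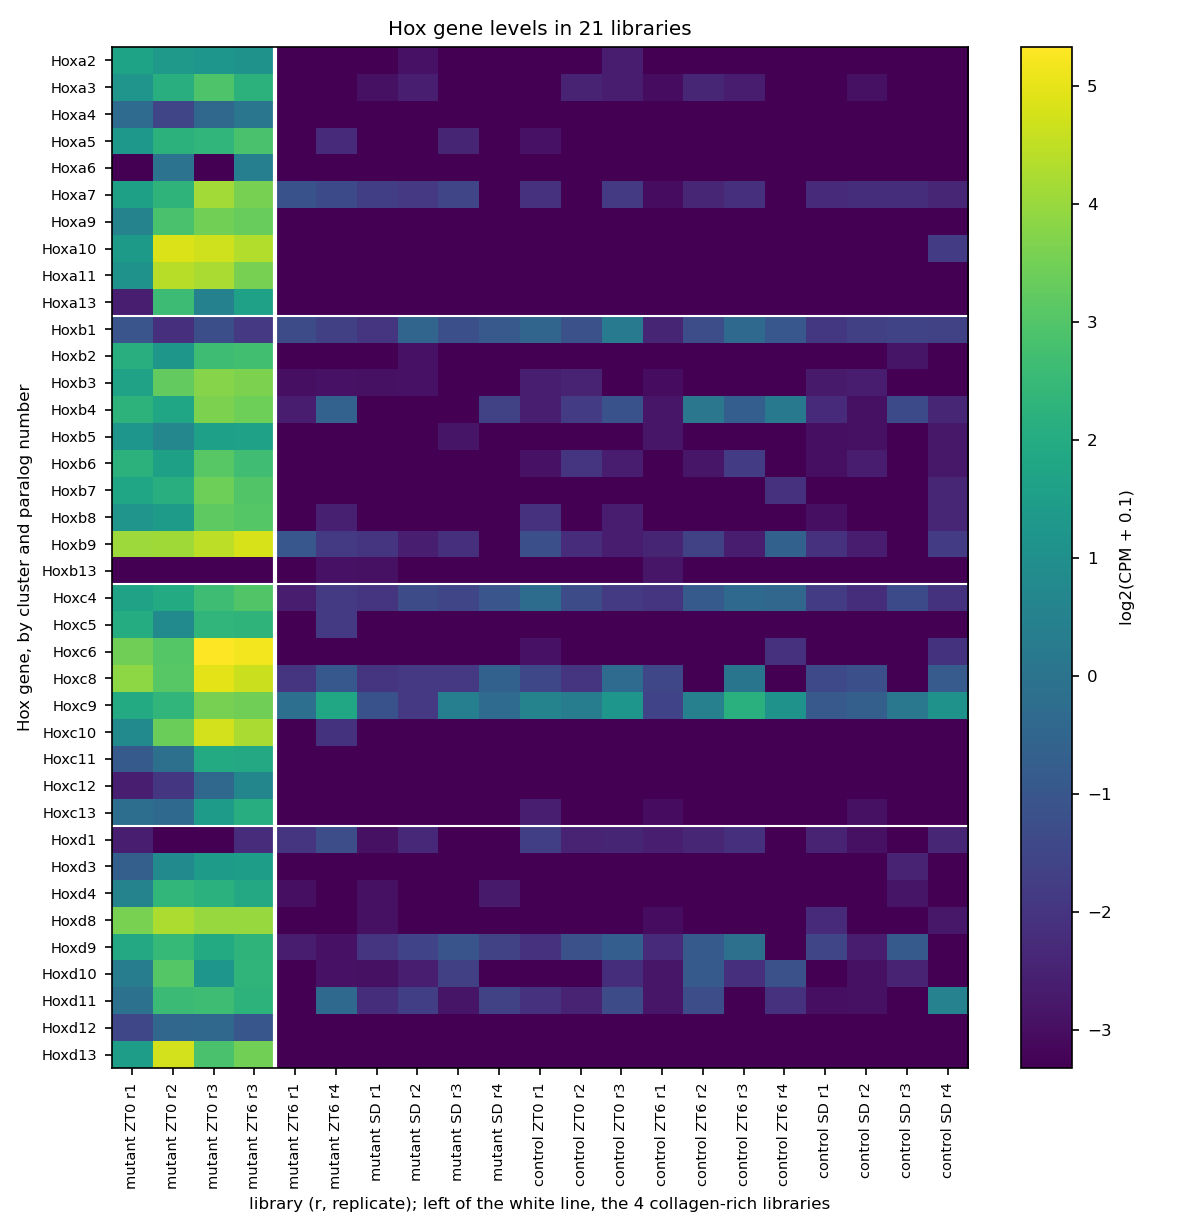
Heat map of log2(CPM + 0.1) for 38 Hox genes (one line of the map per gene, by cluster and paralog number) in 21 libraries, with the 4 collagen-rich libraries left of the white line and the 17 others right of it, mutant before control. Most genes are bright in the 4 and dark in the 17, Hoxb1, Hoxd1 and Hoxb13 are not brighter in the 4, and Hoxc9 is the brightest gene in most of the 17.

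Sequence upstream of the start is shown for the members at the opposite ends of the pattern: Hoxa13 and Hoxd13, which were read in the 4 and had no count in the 17, and Hoxb1, which was not higher in the 4. The bases are from RefSeq on GRCm38.p6, end at or before the annotated start and run 5′ to 3′ on the gene's strand. They are in lower case with matches to 4 searched motifs in capitals. Hoxb1 was cut to 244 bases, so as to end before its GENCODE M21 exon, and the others have 250. The Hoxd13 window ends upstream of its GENCODE M21 start at chr2:74668310. Hoxa13 lies at chr6:52260881-52261130 (minus strand), Hoxd13 at chr2:74667975-74668224 (plus strand) and Hoxb1 at chr11:96365508-96365751 (plus strand).
Hoxa13: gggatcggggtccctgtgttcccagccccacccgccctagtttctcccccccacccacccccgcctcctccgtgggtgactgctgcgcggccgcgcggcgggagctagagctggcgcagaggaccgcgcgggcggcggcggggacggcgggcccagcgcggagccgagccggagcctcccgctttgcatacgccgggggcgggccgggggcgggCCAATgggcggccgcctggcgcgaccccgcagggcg
Hoxd13: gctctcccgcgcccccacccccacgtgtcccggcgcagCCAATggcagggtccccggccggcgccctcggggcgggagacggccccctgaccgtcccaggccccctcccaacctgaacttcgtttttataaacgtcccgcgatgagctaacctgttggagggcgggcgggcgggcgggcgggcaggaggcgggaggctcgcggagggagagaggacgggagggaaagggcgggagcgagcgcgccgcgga
Hoxb1: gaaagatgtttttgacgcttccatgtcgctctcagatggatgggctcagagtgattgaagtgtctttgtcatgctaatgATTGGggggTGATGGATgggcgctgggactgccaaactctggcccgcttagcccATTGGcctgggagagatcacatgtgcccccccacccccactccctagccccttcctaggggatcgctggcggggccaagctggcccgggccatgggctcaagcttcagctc

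The motifs, searched on both strands, were TGATNNAT (bound by HOX proteins together with PBX), TTTATNG (favoured by posterior HOX proteins), TAATTA (the homeodomain core) and CCAAT. Hoxa13 and Hoxd13 each held CCAAT once, and Hoxb1 held it at 2 places on the other strand together with 1 match to TGATNNAT. No matches overlapped. Over 32851 promoter windows of 250 bases, TGATNNAT was present in 7.68%, TTTATNG in 9.81%, TAATTA in 4.84% and CCAAT in 33.8%. Of 24 windows at 22 Hox genes in the same collection, 4 held TGATNNAT, 2 held TTTATNG, 2 held TAATTA and 14 held CCAAT. The windows differed in composition: G and C made up 80% of the bases of Hoxa13 with 35 CpG sites, 74.4% of Hoxd13 with 31 sites and 59.4% of Hoxb1 with 7 sites, and the median over all windows was 52.4% and 6 sites. A match is a run of letters and not a shown binding site.

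In the HoxA cluster, which patterns the limbs and the female reproductive tract at its 5′ end, the members with the highest summed CPM over the 4 libraries were Hoxa10 and Hoxa11. Hoxa10, at 2.52, 28.9, 25.6 and 19.8 CPM in mutant ZT0 replicates 1 to 3 and mutant ZT6 replicate 3, was at 0 in 16 of the 17 and at 0.184 CPM in the other. Hoxa11, known for its part in the forearm and lower leg, was at 2.00, 20.9, 18.6 and 11.7 CPM in the same 4 and at 0 in the 17. Both were low in mutant ZT0 replicate 1 and high in the other 3. The last gene of the cluster, Hoxa13, which shapes hands, feet and genitals, was at 0.0646, 6.03, 1.28 and 2.98 CPM in the 4 and at 0 in the 17. The first of these values is a single count. Of the other members, Hoxa6 was at 0, 0.871, 0 and 1.24 CPM in the 4, and Hoxa2, Hoxa3, Hoxa4, Hoxa5, Hoxa7 and Hoxa9 lay between 0.249 and 17.3 CPM, each above its highest value in the 17. For Hoxa4 the value in mutant ZT0 replicate 3 rests on 2 counts.

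In the HoxB cluster, Hoxb9 and Hoxb3 had the highest summed CPM over the 4 libraries. Hoxb9, a gene of the thorax, was at 16.6, 16.8, 21.8 and 27.8 CPM in the 4, against a lowest value of 0, a median of 0.126 and a highest of 0.548 CPM in the 17. Hoxb3, a gene of the hindbrain and neck, was at 3.04, 9.36, 13.5 and 12.3 CPM in the 4 and at 0 to 0.0766 CPM in the 17. The 4 libraries were closer to each other for Hoxb9, with a highest value 1.67 times the lowest, than for Hoxa10 or Hoxa11. Hoxb13, which lies far from the rest of its cluster and is known from tail, prostate and colon, was at 0 in all 4, which allows up to 0.0933 to 0.961 CPM by library, and had 4 counts in all over 3 of the 17. Hoxb1, the first gene of the cluster and a hindbrain gene, was at 0.387, 0.124, 0.321 and 0.169 CPM in the 4, inside the range of 0.0852 to 1.09 CPM in the 17. The values in the 4 are 6, 4, 1 and 3 counts, so their place in that range is only loosely known. Hoxb2, Hoxb4, Hoxb5, Hoxb6, Hoxb7 and Hoxb8 lay between 1.49 and 12.2 CPM in the 4, each above its highest value in the 17.

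In the HoxC cluster, Hoxc6 and Hoxc8, genes of the thoracic trunk, had the highest summed CPM over the 4. Hoxc6 was at 10.7, 8.12, 40.1 and 35.9 CPM in mutant ZT0 replicates 1 to 3 and mutant ZT6 replicate 3 and at 0 to 0.138 CPM in the 17. Hoxc8 was at 14.5, 8.39, 31.1 and 24.6 CPM in the 4 and at 0 to 0.933 CPM in the 17. Both were higher in mutant ZT0 replicate 3 and mutant ZT6 replicate 3 than in the other pair. Hoxc10, a gene of the lumbar region and hindlimb, was at 1.68, 10.3, 26.3 and 18.6 CPM in the 4, at 0 in 16 of the 17 and at 0.141 CPM in the other. Hoxc13, known from hair and nails, was at 0.775, 0.684, 2.56 and 4.05 CPM in the 4 and at 0 to 0.0673 CPM in the 17, with 4 counts in all there. Hoxc9 was at 3.81, 5.07, 11.5 and 10.97 CPM in the 4 and overlapped the 17, where it had a lowest value of 0.168, a median of 1.15 and a highest of 4.42 CPM. Hoxc4, Hoxc5, Hoxc11 and Hoxc12 lay between 0.0646 and 7.71 CPM in the 4, each above its highest value in the 17. Hoxc12 had 1, 5, 2 and 26 counts in the 4 and 0 in the 17. Its lowest value is thus a single count and is not resolved from 0.

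In the HoxD cluster, whose 5′ end works with HoxA in the limbs and genitals, Hoxd8 varied little among the 4 libraries and Hoxd13 widely. Hoxd8 was at 11.9, 19.0, 15.7 and 15.98 CPM in the 4, at 0 in 13 of the 17 and at 0.110 CPM at most. Hoxd13, the gene of digits and genital tubercle, was at 2.78, 26.8, 7.05 and 11.2 CPM in the 4 and at 0 in all 17. It was highest in mutant ZT0 replicate 2, as Hoxa13 was. Hoxd1 was at 0.0646, 0, 0 and 0.113 CPM in the 4 and at 0 to 0.317 CPM in the 17. Hoxd11 was at 0.839, 5.85, 6.09 and 4.73 CPM in the 4 and overlapped the 17 through control SD replicate 4, the highest at 1.33 CPM. Hoxd3, Hoxd4, Hoxd9, Hoxd10 and Hoxd12 lay between 0.258 and 8.12 CPM in the 4, each above its highest value in the 17. For Hoxd12 the value in mutant ZT0 replicate 3 rests on 2 counts.

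Levels of different members were compared per kilobase of annotated exon. The highest member on that scale was Hoxb9 in mutant ZT0 replicate 1, at 6.45 CPM per kb, Hoxd13 in mutant ZT0 replicate 2, at 10.8 CPM per kb, and Hoxc6 in mutant ZT0 replicate 3 and mutant ZT6 replicate 3, at 16.6 and 14.9 CPM per kb. Per kilobase of coding sequence the same genes were highest in each of the 4. By that scale the leading gene lay in a different cluster in each of the first 3 libraries.

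**Figure D2:**
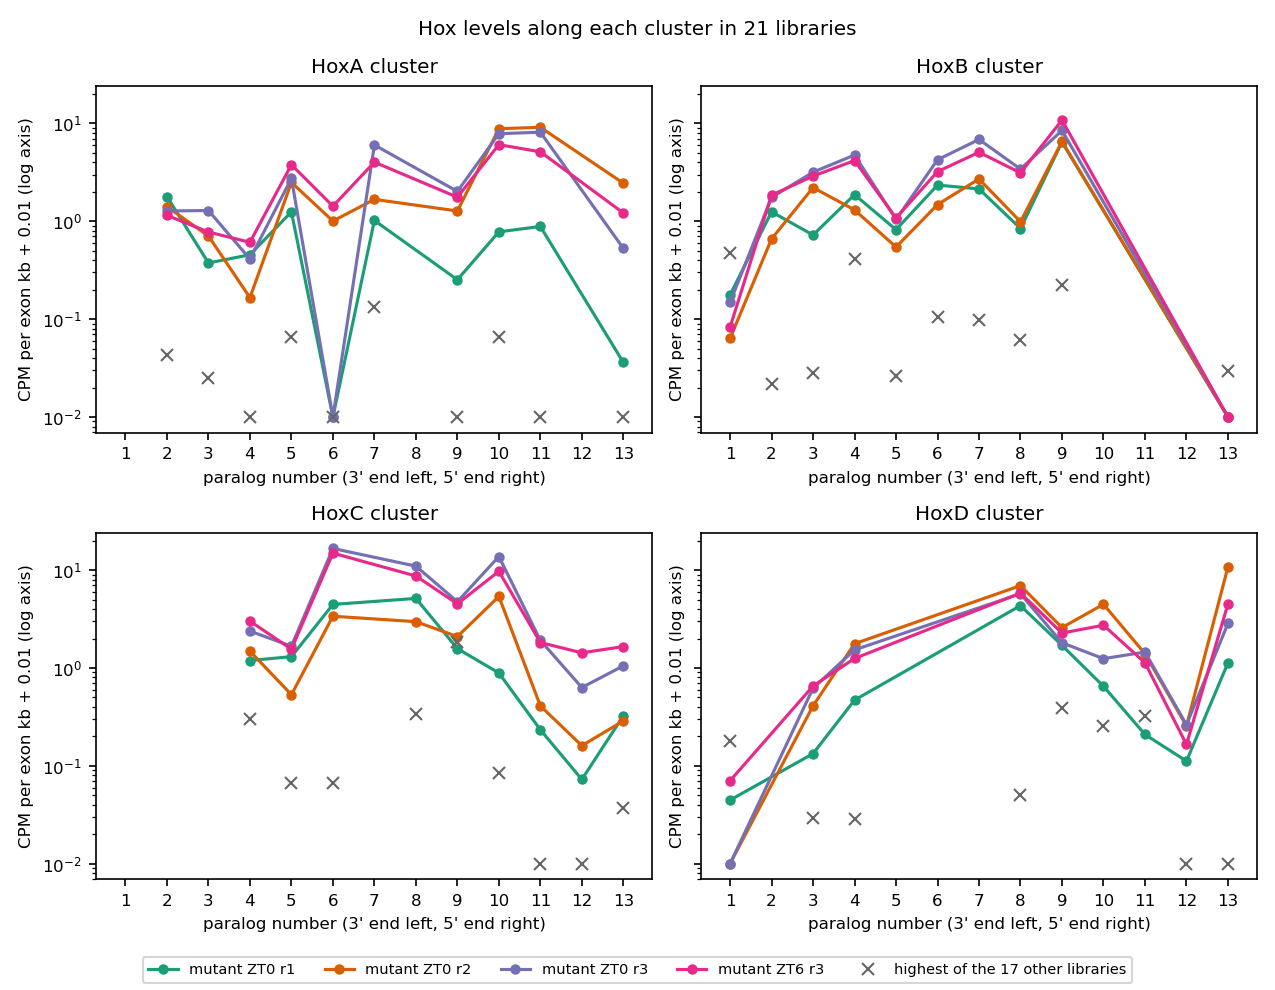
CPM per kilobase of exon plus 0.01 (log axis) against paralog number for the 4 clusters, with a line for each of the 4 collagen-rich libraries and a cross for the highest of the 17 other libraries. Hoxb9 lies close together in the 4 lines, Hoxd13 and Hoxa13 are highest in mutant ZT0 replicate 2, and Hoxb13 is at 0 in all 4.

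The farthest 5′ member present at 1 CPM was Hoxd13 in the HoxD cluster and Hoxb9 in the HoxB cluster in all 4 libraries. In the HoxA cluster it was Hoxa11 in mutant ZT0 replicate 1 and Hoxa13 in the other 3. In the HoxC cluster it was Hoxc10 in mutant ZT0 replicates 1 and 2 and Hoxc13 in mutant ZT0 replicate 3 and mutant ZT6 replicate 3. The answer turned on the threshold in all clusters but HoxB. At 0.5 CPM it was paralog 13 for HoxC in mutant ZT0 replicates 1 and 2 too. At 5 CPM it was paralog 8 for HoxC in mutant ZT0 replicate 1 and paralog 10 in the other 3, paralog 8 for HoxD in mutant ZT0 replicate 1, and paralog 11 for HoxA in mutant ZT0 replicate 3 and mutant ZT6 replicate 3. Among the genes that set these answers, Hoxa13 in mutant ZT0 replicate 3 lay just inside 1 CPM (1.28 CPM, 4 counts) and Hoxc13 in mutant ZT0 replicate 1 just outside it (0.775 CPM, 12 counts).

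Paralogs 11 to 13 made up 5.57, 26.2, 11.7 and 12.7% of Hox counts in mutant ZT0 replicates 1 to 3 and mutant ZT6 replicate 3. Their 95% Wilson intervals were 4.65 to 6.66%, 25.2 to 27.2%, 9.94 to 13.8% and 11.8 to 13.6%, which cover counting error only. Mutant ZT0 replicate 2 thus held the largest share of 5′ transcripts and mutant ZT0 replicate 1 the smallest of the 4, beyond counting error. Paralog group 13 alone made up 2.79, 14.2, 3.14 and 5.74%. By cluster, HoxA and HoxD held 34.5 and 30.8% of the Hox counts in mutant ZT0 replicate 2, HoxB and HoxC held 31.9 and 30.1% in mutant ZT0 replicate 1, and HoxC held 36.6 and 35.2% in mutant ZT0 replicate 3 and mutant ZT6 replicate 3.

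**Figure D3:**
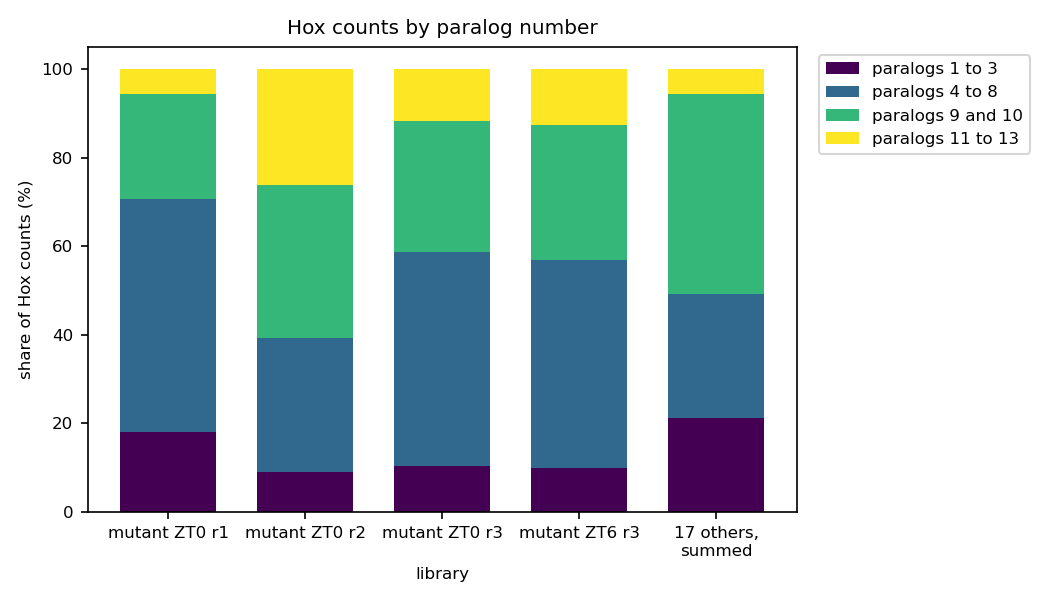
Stacked bars of the share of Hox counts (%) held by paralogs 1 to 3, 4 to 8, 9 and 10, and 11 to 13 in each of the 4 collagen-rich libraries and in the 17 others summed (1768 counts). Paralogs 11 to 13 hold 26.2% in mutant ZT0 replicate 2 and 5.57% in mutant ZT0 replicate 1, and 5.66% in the 17 summed.

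Across the 39 genes, CPM in mutant ZT0 replicate 3 and mutant ZT6 replicate 3 ranked nearly alike, with a Spearman rho of 0.957, although the labels place them at different times of day. Mutant ZT0 replicates 1 and 2 ranked least alike, with a rho of 0.478. The other 4 pairs lay between 0.691 and 0.844. These are descriptions over 39 genes that share clusters and are not independent replicates.

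In the 17 libraries Hox counts were few and of another make-up. The 5 members with the highest summed level there were Hoxc9, Hoxb1, Hoxc4, Hoxc8 and Hoxb4. Hoxc9 held 575 of the 1768 Hox counts of the 17 and was at or above 1 CPM in 10 of them. By group it averaged 2.16 ± 1.93 CPM in mutant ZT6 (SD, n = 2 of the 17), 0.613 ± 0.462 in mutant SD (SD, n = 4), 1.58 ± 0.577 in control ZT0 (SD, n = 3), 1.99 ± 1.78 in control ZT6 (SD, n = 4) and 1.01 ± 0.753 in control SD (SD, n = 4), so the groups overlapped. Hoxb1 had 171 counts, was above 0 in all 17 libraries and averaged 0.381 ± 0.191 CPM in mutant SD and 0.212 ± 0.0342 CPM in control SD (SD, n = 4 each). Hoxc4 was above 0 in all 17 at 0.0585 to 0.740 CPM. Hoxc8, at 0 to 0.933 CPM, and Hoxb4, at 0 to 1.03 CPM, were each at 0 in 3 of the 17. Per kilobase of exon the medians over the 17 were 0.473 for Hoxc9, 0.136 for Hoxb1, 0.0981 for Hoxc4, 0.0902 for Hoxc8 and 0.0428 CPM per kb for Hoxb4. At the other end, 9 members had no count in any of the 17, namely Hoxa4, Hoxa6, Hoxa9, Hoxa11, Hoxa13, Hoxc11, Hoxc12, Hoxd12 and Hoxd13. Paralog group 9 made up 42.8% of the summed counts of the 17.

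Exons of 16 of the 39 members overlap another annotated gene, 9 on the same strand and 10 on the opposite strand, and the sources used here do not say whether strand was used in counting. Values of those members may hold reads of the neighbour. The pairs Hoxc5 and Hoxc10, Hoxd3 and Hoxd4, and Hoxa11 and its antisense RNA gene Hoxa11os are examples. Hoxa13, Hoxb1, Hoxb9, Hoxc6, Hoxc9, Hoxd8 and Hoxd13 have no such overlap.

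The comparison of genotypes at ZT0 sets 3 collagen-rich mutant libraries against 3 control libraries of the 17, so it repeats the contrast by which the genes were chosen, and no p-value is given for a member. Hox transcripts summed to 238 ± 109 CPM in mutant ZT0 and 5.02 ± 1.23 CPM in control ZT0 (SD, n = 3 each). Hoxb9 averaged 18.4 ± 2.94 CPM in mutant ZT0 and 0.170 ± 0.147 CPM in control ZT0, a log2 fold change of 7.21 ± 1.56 (SE, edgeR). Of the members, 34 passed at an adjusted p under 0.05 (edgeR quasi-likelihood test with Benjamini-Hochberg adjustment), all higher in mutant ZT0, where 20.9% of the 20763 genes tested were called higher and 29.2% lower; since the choice of genes used this contrast, nothing is read from it. Hoxb1 had a log2 fold change of -0.84 ± 0.75 (SE) and did not pass, and Hoxa6, Hoxb13, Hoxc12 and Hoxd1 were not tested because of their low counts. The median log2 fold change was 7.21 over the 35 members tested and -0.22 over all genes. There were 16 tested members at 0 in all control ZT0 libraries, for which a fitted fold change is no bound; with these set to the bound from 3 counts over the control ZT0 group, the median was 6.6. On that bound Hoxa10, Hoxa11 and Hoxd13 were at least 569-fold, 414-fold and 366-fold higher in mutant ZT0. Leaving out any 1 of the 6 libraries left 24 to 32 members past the threshold.

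At ZT6 the mutant group holds 1 collagen-rich library, 2 of the 17 and the library of 7348 counts. The Hox sum was 2.58, 0, 317.4 and 7.15 CPM in the 4 mutant ZT6 libraries and 1.62, 4.77, 8.90 and 5.48 CPM in the 4 control ZT6 libraries. The group means of 81.8 ± 157 and 5.19 ± 2.99 CPM (SD, n = 4 each) therefore rest on 1 library, and 2 of the other 3 mutant values lay within the control range. No member passed (edgeR quasi-likelihood test, adjusted p of at least 0.0571; 0% of the 20763 genes called), while 33 of the 35 tested had an unadjusted p under 0.05, as had 2720 of all genes. Those values include mutant ZT6 replicate 3, 1 of the 4 libraries by which the genes were chosen, and 26 of the 35 had enough counts to be tested only through the 4, so nothing is read from the count. The smallest p-values among members were those of Hoxa7, Hoxb3 and Hoxb9. Hoxa7 averaged 3.04 ± 5.66 CPM in mutant ZT6 and 0.0589 ± 0.0581 CPM in control ZT6 (SD, n = 4 each), with a log2 fold change of 6.42 ± 1.31 (SE). Hoxb3 averaged 3.08 ± 6.12 and 0.00532 ± 0.0106 CPM in mutant and control ZT6, and Hoxb9 averaged 7.10 ± 13.8 and 0.230 ± 0.224 CPM (SD, n = 4 each). All 3 had an adjusted p of 0.0571 by the edgeR test, which ran from 0.00467 to 1 over the alternatives tried for them in edgeR.

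This result depended on single libraries. With mutant ZT6 replicate 1 left out, 25 members were called higher (6.21% of genes called higher), and with mutant ZT6 replicate 4 left out 20 were (5.49%). Without the low-count filter 9 members were called higher (1.01%), and DESeq2 called 15 higher (3.54%). With mutant ZT6 replicate 3, the collagen-rich library, left out, no member and no gene was called by edgeR. In that fit 6 of the 32 members tested and 446 of 20695 genes had an unadjusted p under 0.05. Members could still have enough counts there through the mutant ZT0 libraries. These fits all kept collagen-rich libraries, by which the genes were chosen, so nothing is read from their counts of members. Over the 17 libraries alone, 9 members had enough counts to be tested and none was called by edgeR, nor was any gene (0%), with 0 members and 566 genes at an unadjusted p under 0.05.

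Effects of genotype after SD, of SD in control mice and of time in control mice compare only libraries of the 17, and so do not use the contrast by which the genes were chosen. The Hox sum averaged 2.69 ± 0.655 CPM in mutant SD and 3.14 ± 1.57 CPM in control SD (SD, n = 4 each). Control ZT6 averaged 5.19 ± 2.99 (SD, n = 4) and control ZT0 5.02 ± 1.23 CPM (SD, n = 3). In the fit over the 17 libraries, 9 members had enough counts to be tested, Hoxc9, Hoxb1, Hoxc4, Hoxc8 and Hoxb4 among them. None of the 9 was called in these 3 comparisons (edgeR quasi-likelihood test; 0% of genes called), and 1 had an unadjusted p under 0.05 there, for time, as had 631, 1318 and 694 genes. Hoxc9 had log2 fold changes of -0.82 ± 0.81 for genotype after SD, -0.91 ± 0.79 for SD in control mice and 0.35 ± 0.85 for time in control mice (SE), with edgeR adjusted p of 0.999, 1 and 0.977. Each change was close to or below its standard error.

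In the fit over all 22 libraries the other 26 of the 35 members tested had enough counts only through the 4 collagen-rich libraries, so the absence of calls there says nothing about them. Again 0% of genes were called, and 0 of the 35 members and 169, 700 and 244 genes had an unadjusted p under 0.05. Of the members testable in the 17, Hoxb1 had the smallest p in this fit after SD and Hoxb4 for SD in control mice. In the fit over the 17 libraries it was Hoxc4 for SD in control mice. Its log2 fold change there was -1.33 ± 0.68 (SE, edgeR adjusted p of 0.839). Hoxb1 had a log2 fold change of 0.83 ± 0.62 (SE; edgeR adjusted p = 1) in mutant against control after SD. Hoxb4 averaged 0.129 ± 0.109 CPM in control SD and 0.639 ± 0.465 CPM in control ZT6 (SD, n = 4 each), a log2 fold change of -2.27 ± 1.28 (SE; edgeR adjusted p = 1, and 0.862 to 1 over the alternatives in edgeR). Hoxc4 for SD in control mice was also among the 3 smallest p-values, with a log2 fold change of -1.3 ± 1.0 (SE) in this fit. So were Hoxb6 and Hoxb8 after SD, at -2.91 ± 2.21 and -2.65 ± 2.32 (SE). Hoxd10 for SD in control mice, at -2.93 ± 1.63 (SE), was another. For time in control mice they included Hoxd10 and Hoxb8, at 2.42 ± 1.69 and -3.71 ± 2.43 (SE). Hoxb6, Hoxb8 and Hoxd10 are among the 26, and Hoxb6 and Hoxb8 held 0 counts in mutant SD and 4 and 3 counts in control SD.

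DESeq2 gave calls in the same 3 comparisons, on very few counts. It called 5 members for genotype after SD, where 0.0281% of genes were called, 2 for SD in control mice, where 0.0748% were, and 3 for time in control mice, where 0.168% were. After SD these were Hoxa5, Hoxb6, Hoxb8, Hoxc6 and Hoxc13, 5 of the 9 genes that DESeq2 called in that comparison. Hoxb6 had 0 counts over the 4 mutant SD libraries and 4 counts over the 4 control SD libraries, and Hoxc13 had 0 and 1. For SD in control mice Hoxb2 and Hoxb8 had 1 and 3 counts in control SD and 0 in control ZT6, and for time Hoxa5, Hoxb8 and Hoxd8 had 0, 0 and 1 counts in control ZT6 and 1, 6 and 0 in control ZT0. No member called there had more than 4 counts in any library of those comparisons. The 4 collagen-rich libraries, with up to 928 counts of a member, entered the same DESeq2 fit.

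Genes that act with or beside the Hox genes were read from lists, at ZT0 unless another comparison is named. Beside each count stand the 20.9% of all genes called higher and the 29.2% called lower there, and the median of -0.22 over all genes. Since this comparison carries the choice of the 4 libraries, rose and fell describe these libraries, and no p-value is given. Of 16 non-coding RNA genes of the Hox clusters, 8 had enough counts to be tested, and all 8 rose in mutant ZT0. Their median fitted log2 fold change was 7.37, with no bound set for genes at 0 in control ZT0. The 16 together summed to 18.6 to 40.4 CPM in the 4 and 0.4045 to 1.61 CPM in the 17. Which of them had enough counts thus rested largely on the 4, so nothing is read from the count of 8. Hoxa11os was at 1.36, 14.2, 11.9 and 10.6 CPM in the 4 and at 0 to 0.0685 in the 17, and Hoxb3os at 6.13, 9.98, 14.4 and 14.5 CPM against 0 to 0.141. Hoxb5os and Hoxd3os1 also rose. Hotair, the antisense RNA gene of the HoxC cluster, was at 0, 0.342, 0.641 and 0.506 CPM in the 4 and at 0 in the 17.

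Hox clusters also encode microRNAs that repress Hox transcripts. The mature forms of both families are shown because they form seed-sharing pairs across clusters: miR-196a comes from HoxB and HoxC and miR-196b from HoxA, while miR-10a comes from HoxB and miR-10b from HoxD. Sequences are from RefSeq on GRCm38.p6, with the seed (bases 2 to 8) in capitals.
miR-196a-5p: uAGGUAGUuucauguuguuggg
miR-196b-5p: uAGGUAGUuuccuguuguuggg
miR-10a-5p: uACCCUGUagauccgaauuugug
miR-10b-5p: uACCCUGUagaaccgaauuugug

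The miR-196 pair differs by A12C and the miR-10 pair by U12A, counted from the 5′ end of the first named. Polyadenylated RNA libraries do not measure mature microRNAs, and counts at a hairpin gene are those of longer transcripts. Mir196a-1, in the HoxB cluster, had 2, 7 and 4 counts in mutant ZT0 replicates 1, 2 and 3 and 5 counts in mutant ZT6 replicate 3, and 0 in the 17. Mir196b had 3 counts in mutant ZT6 replicate 3, and 0 in the other 3 of the 4 and in the 17. Mir196a-2, Mir10a, Mir10b and Mir615 were at 0 in all 21 libraries.

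The cofactors of the TALE family, which bind DNA together with HOX proteins, were present in both sets of libraries. Of 9, 2 rose and 1 fell in mutant ZT0 (median log2 fold change 0.08), shares near or below those of all genes. Meis1 was at 20.0 to 31.4 CPM in the 4 and 3.91 to 8.34 CPM in the 17, and Meis2 at 37.5 to 63.5 and 3.30 to 29.8 CPM, with log2 fold changes of 2.45 ± 0.51 and 2.85 ± 0.77 (SE, edgeR). Pbx4 fell. Of 21 Polycomb and trithorax regulators, which keep Hox genes silent or active, 6 rose and 5 fell (median log2 fold change 0.03), again near the shares of all genes. Among subunits of the silencing complex PRC2, Ezh2 and Eed rose with log2 fold changes of 1.83 ± 0.42 and 1.77 ± 0.41 (SE, edgeR), Ezh1 fell by 1.07, and Suz12, at -0.04, did not pass. Cbx7, a Polycomb chromodomain gene, and Kmt2a, a trithorax methyltransferase that activates Hox genes, fell by 3.94 and 1.32 on the log2 scale.

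Among genes that mark position, 14 of 20 limb and trunk mesenchyme factors rose in mutant ZT0 and none fell (median log2 fold change 4.58). Hand2, Tbx15, Prrx2 and Twist2 had the largest changes, and Tbx15 was at 165 to 206.6 CPM in the 4 and 0 to 4.52 CPM in the 17. Tbx4, a gene of the hindlimb and lung, was at 1.10, 28.6, 10.3 and 7.15 CPM in mutant ZT0 replicates 1 to 3 and mutant ZT6 replicate 3 and at 0 to 0.809 CPM in the 17. Tbx5, a gene of the forelimb and heart, was at 3.29, 4.601, 18.3 and 15.1 CPM in the 4 and at 0.239 to 2.43 CPM in the 17. Pitx1, of the hindlimb and pituitary, was at 1.42, 5.85, 8.33 and 6.30 CPM in the 4, inside the range of 0 to 27.5 CPM in the 17. Tbx4 was highest in mutant ZT0 replicate 2, the library with the largest share of paralogs 11 to 13. Pitx1 and Tbx5 were highest in mutant ZT0 replicate 3. Tbx4 and Tbx5 were both above 1 CPM in each of the 4, and Tbx5 was so in at least 1 of the 17 too. Whether these levels go with the Hox shares was not tested.

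Forebrain factors were low in the 4. Of 16 tested, 13 fell in mutant ZT0 and 1, Emx2 of the cortex and urogenital tract, rose (median log2 fold change -6.93), with Nkx2-1, Nkx2-4 and Otx2 among the largest changes. Nkx2-1, needed to form the hypothalamus, was at 0, 0, 0 and 0.450 CPM in the 4 and at 23.9 to 49.5 CPM in the 17, and Six3 was at 0 to 0.194 and 29.6 to 67.6 CPM. Otx2 was at 0 in the 4 and at 0.219 to 3.53 CPM in the 17. Of the other lists, 6 of 14 tested cranial mesenchyme factors rose, among them Barx1 and Foxc2, and 3 fell, among them Dlx5 and Dlx6 (median log2 fold change 1.55), and 2 of 6 tested hindbrain and spinal cord genes rose and 1 fell (-0.04). Egr2, which is also a Schwann cell gene, rose and Chat fell. Of 10 other homeobox genes of the trunk 2 were tested, and Gsx1 fell. Cdx1, Cdx2 and Cdx4, upstream regulators of the Hox clusters in the embryo, were at 0 in the 4. They had too few counts to be tested, so no difference from the 17 is shown for them. In the other 4 comparisons no member of any of these lists was called.

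**Figure D4:**
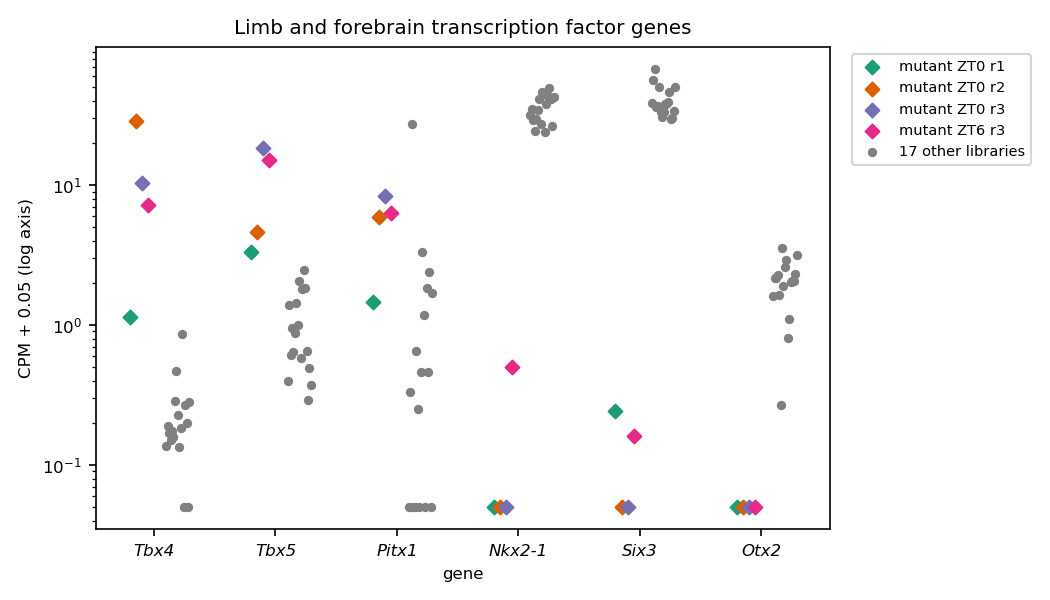
CPM plus 0.05 (log axis) of 6 transcription factor genes, with a diamond for each of the 4 collagen-rich libraries and a grey point for each of the 17 others. Tbx4 and Tbx5 are higher in each of the 4 than in any of the 17, Nkx2-1, Six3 and Otx2 are lower, and Pitx1 overlaps.

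Summed markers of several cell types also differed between the 4 libraries and the 17. The 4 libraries were set apart by their collagens, so the fibroblast values below restate that choice. At ZT0, 14 of the 15 fibroblast markers rose in mutant libraries, and all 9 neuronal, 6 oligodendrocyte and 5 astrocyte markers fell. Of all genes tested, 20.9% were called higher and 29.2% lower there. This comparison carries the choice of the 4 libraries, so nothing is read from these counts of markers. The 15 fibroblast markers, chiefly collagens, summed to 18220, 44730, 40760 and 37840 CPM in the 4 and to 400.3 to 893.8 CPM in the 17, and none of the 15 was at 0 in all 4. Within the 4, mutant ZT0 replicate 1 had the lowest value of both this sum and the Hox sum. The highest fibroblast sum was in mutant ZT0 replicate 2 and the highest Hox sum in mutant ZT0 replicate 3. The sum of smooth muscle and pericyte markers was highest in mutant ZT0 replicate 1. Smooth muscle and pericyte markers (798 to 6640 CPM in the 4, 56.2 to 112.5 in the 17), Schwann cell markers (133.7 to 473.7 and 39.8 to 86.8) and fat markers (93.9 to 692 and 0 to 1.93, with Lep and Cfd at 0 in all 4) did not overlap either and were higher in the 4, although Rgs5 of pericytes and Sox10 of Schwann cells fell in mutant ZT0. Markers of oligodendrocytes (18.6 to 29.0 CPM in the 4, 3282 to 7754 in the 17), astrocytes (14.7 to 43.3 and 1966 to 2925), meninges (33.0 to 60.3 and 206.9 to 2395) and endothelium (16.98 to 19.97 and 31.9 to 95.8) did not overlap and were lower, although Foxc1 of the meninges list rose in mutant ZT0. Markers of skeletal muscle (8.38 to 139.8 and 5.46 to 28.1), macrophages and leukocytes (16.8 to 171.6 and 53.3 to 104.8), epithelium (0.641 to 6.41 and 5.72 to 56.6) and cartilage and bone (56.3 to 140.4 and 33.3 to 81.2) overlapped. In skeletal muscle Ckm, Myh4, Myod1 and Pax7, in epithelium Epcam and Krt5, and in cartilage and bone Bglap and Sp7 were at 0 in all 4. At the same label of mutant ZT6, replicate 3 had 37840 CPM of fibroblast markers and 317.4 CPM of Hox, and replicates 1 and 4 had 453 and 728 CPM of fibroblast markers and 2.58 and 7.15 CPM of Hox. The part of these cells in the Hox levels was not tested.

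**Figure D5:**
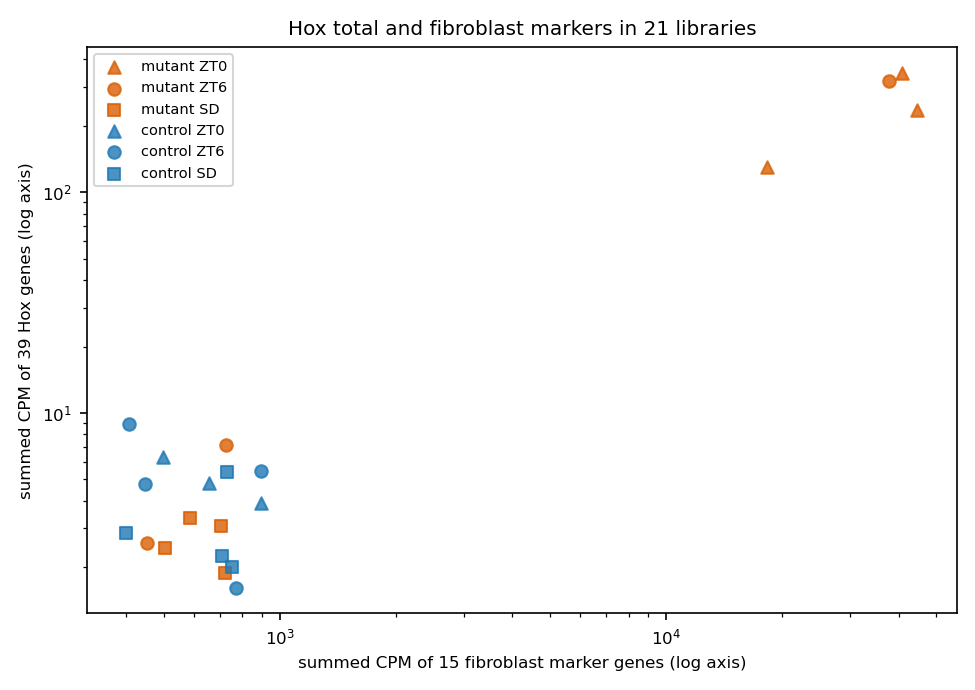
Summed CPM of the 39 Hox genes against summed CPM of 15 fibroblast markers (both log axes) in 21 libraries, orange for mutant and blue for control, with the shape giving the state. The 4 collagen-rich libraries lie at 129.8 to 347.4 CPM of Hox and the 17 others at 1.62 to 8.90 CPM.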

How the data were processed

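RNA of 22 libraries was read as 1 table. Per the labels' protocols, Trizol RNA was made into TruSeq polyA libraries and sequenced on a NovaSeq, and the submitters' processing notes name FastQC, Trimmomatic 0.38 and kallisto 0.44.0. Per the labels, the index was built from Ensembl mouse annotation and transcripts were summed to genes with tximport. The authors deposited kallisto estimated counts per gene as whole numbers (expected counts), not normalised, and named DESeq2 for their own test. Of 41461 lines, 5 that repeat a gene ID were dropped, and GENCODE M21 (GRCm38), which gave exon lengths and overlaps, holds 41193 of the remaining 41456 IDs.

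CPM are counts per library total, and a value of 0 allows 3 counts, or 0.0639 to 0.961 CPM in 21 libraries. Shares carry 95% Wilson intervals; intervals and floors cover counting error only. Tests across all genes used edgeR 4.0.16 under R 4.3.3 (TMM, filterByExpr with min.count 10 and min.total.count 15, quasi-likelihood F tests, two-sided, 1 fit of 6 groups, Benjamini-Hochberg, adjusted p under 0.05), in a script tested on simulated data. SE was computed from the log2 fold change and its F statistic (absolute change divided by the root of F). Between replicates, chi-square per degree of freedom was at least 33.97, so no library was counted as a duplicate.

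The members, the libraries set apart and the gene lists were chosen with earlier results of these data known. In full are given, per cluster, the 2 highest members over the 4 collagen-rich libraries, the farthest 5′ member and every paralog 13, then the 5 highest over the 17. Named besides are the members with the 3 smallest p-values in each comparison but ZT0, and per list up to 4 called genes with the largest change. Alternatives were RLE factors, DESeq2 1.42.0, no filter, a 2-fold limit, index numbers 43 to 46 as a covariate, leaving out each library, the 17 libraries alone, TMM-scaled CPM, coding length, and presence at 0.5 or 5 CPM. Leaving out the library of 7348 counts was added after the data were seen. Values of 1 Hox member and of some genes of the lists are not reported here, although sums, shares and counts include them.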

Additional observations from a re-analysis of the deposited data

Results flagged for a closer look

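In 36 looks at groups of 4 libraries, 4 values from 3 libraries stood far from the rest of their group; chance gives about 1 such group in 20. Hoxc8 was at 0.549 CPM in mutant SD replicate 4 and at 0.148 to 0.168 CPM in the other 3 mutant SD libraries, and Hoxb4 was at 0.219 CPM there and at 0 in the other 3. These are 10 and 4 counts, and by this rule any value beside 3 values of 0 is flagged. Fibroblast markers summed to 400.3 CPM in control SD replicate 3 and to 708.5 to 754.2 CPM in the other 3 control SD libraries. Neuronal markers summed to 4644 CPM in mutant SD replicate 1 and to 5283 to 5360 CPM in the other 3 mutant SD libraries.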

How the results depend on the processing

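At ZT0 the count of Hox members called (34) stayed within 1.5 times under every alternative and ran from 24 to 32 with 1 library left out. At ZT6 the count of 0 became 9 with no filter and 15 with DESeq2, and ran from 0 to 25 with 1 library left out; over all genes the 0 became 328, 688 and 0 to 1356. DESeq2 turned the counts of 0 into 5 after SD, 2 for SD in control mice and 3 for time in control mice (9, 16 and 37 over all genes); with 1 library left out these Hox counts stayed at 0. The cause was not tested. On TMM-scaled totals the Hox sums were 191.4, 334.1, 413.9 and 415.1 CPM in mutant ZT0 replicates 1 to 3 and mutant ZT6 replicate 3, and at most 8.27 CPM in the 17. The farthest 5′ member at 5 CPM was paralog 11 for HoxA in mutant ZT0 replicate 3 and mutant ZT6 replicate 3, paralog 8 for HoxC and for HoxD in mutant ZT0 replicate 1 and paralog 10 for HoxC in mutant ZT0 replicate 3 and mutant ZT6 replicate 3 (HoxA in mutant ZT0 replicate 1 is not reported); at 0.5 CPM it was paralog 13 for HoxC in mutant ZT0 replicates 1 and 2. Of 110 refits of 10 named members at ZT0, 100 kept direction and side of the threshold, 10 no longer passed and 0 reversed. The genes were chosen on this contrast, so nothing is read from how stable the ZT0 results were. The labels give no replicate numbers, and those used here follow the order of the samples within each group. No pairing of libraries across groups was known, so no paired analysis was made. Hox depth was thinnest in the 17 libraries, at 56 to 216 Hox counts each.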
